A study of Mus musculus with 15 samples.

Results

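The genes described here are the Nodal pathway and its targets. They comprise 9 genes, Nodal, Lefty1, Lefty2, Tdgf1, Smad7, Cer1, Gsc, Mixl1 and Acvr2b, named one by one for their place in the pathway and found by their Ensembl identifiers among the 55536 genes counted. The study followed mouse embryonic stem cells (ESCs) through epiblast-like cells (EpiLCs) to primordial germ cell-like cells (PGCLCs) by RNA sequencing. There were 5 groups of 3 samples each, 15 samples in all, with 22555021 to 42725681 counts per sample. ESCs were naive cells grown in N2B27 with 1 µM PD0325901, 3 µM CHIR99021 and LIF, together called 2i and LIF. EpiLCs were made from them over 48 h with activin A at 20 ng/mL, bFGF at 12 ng/mL and knockout serum replacement. PGCLCs were Stella-eGFP-positive cells collected on day 2, 4 or 6 after EpiLCs were seeded in serum-replacement medium (GK15) with doxycycline at 2 µg/mL, which switched on transgenes for Prdm1, Prdm14, Tfap2c and Nanog. All 5 groups carried these transgenes and the eGFP reporter driven by Stella regulatory sequence, in cells of a clonal line, and counts for those 4 genes do not separate transgene from endogenous RNA.

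Nodal is a secreted ligand of the TGF-beta family that signals through activin receptors together with an EGF-CFC co-receptor, and drives phosphorylation of SMAD2 and SMAD3. In the mouse embryo it maintains the epiblast and, at higher activity, promotes mesendoderm, while its feedback inhibitors of the Lefty family restrain it. Activin A uses the same receptors without the co-receptor, so a medium with activin A engages the same SMADs.

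Each of 3 marker sums was highest in the group it is named for, while single markers were not always so. The summed level of 5 naive ESC markers (Klf4, Zfp42, Esrrb, Tfcp2l1, Tbx3) was 2063, 2119 and 2131 CPM (counts scaled to library size with TMM factors) in the ESC samples, 219 to 250.2 CPM in the EpiLC samples and 907 to 1124 CPM in PGCLCs. The summed level of 4 EpiLC markers (Fgf5, Pou3f1, Otx2, Dnmt3b) was 1824, 1966 and 1942 CPM in EpiLCs, against 135 to 142 CPM in ESCs and 40.3 to 69.1 CPM in PGCLCs. The 7 PGCLC markers (Dppa3, Prdm1, Itgb3, Nanos3, Tfap2c, Dnd1, Dazl), of which Prdm1 and Tfap2c are also transgenes, summed to 1001 to 1363 CPM in the 9 PGCLC samples and to 132 to 240.2 CPM in the 6 others. Stella is another name for Dppa3, and PGCLCs were sorted on the Stella reporter. The part of Dppa3 in the sum, with means of 452, 448 and 475 CPM on days 2, 4 and 6, is therefore no independent sign of identity. A few genes carried these sums: Dnmt3b was at 134 ± 3.64 CPM in ESCs (SD, n = 3) and 1558 ± 62.7 CPM in EpiLCs, and Esrrb (620 ± 36.9 CPM) and Zfp42 (330 ± 15.2 CPM) made most of the naive sum on day 2, where Klf4 was at 5.99 ± 0.387 CPM against 16.2 ± 1.92 CPM in EpiLCs. Prdm1 was at 71.6 ± 10.9 CPM in EpiLCs and 59.6 ± 2.87 CPM on day 6. One library stood apart. Day 6 replicate 1 had counts for 18061 genes, against 21103 to 24343 in the other 14 samples, and only 1382 of its genes had 1 to 9 counts, against 5942 to 7510. In it 170 genes were at 0 that had 20 or more counts in both other day 6 samples, against 0 to 2 such genes in every other sample, so low values in this library are less certain.

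Levels of the 9 genes spanned a wide range. Per kilobase of exon, the order in ESCs was Tdgf1 (203 ± 3.94 CPM per kb, SD, n = 3), Lefty2 (146 ± 4.22), Nodal (25.5 ± 1.02), Lefty1 (16.7 ± 0.733), Smad7 (13.5 ± 0.723), Acvr2b (5.22 ± 0.247), then Gsc (0.525 ± 0.204) and Mixl1 (0.477 ± 0.232), whose ranges overlapped. In EpiLCs Lefty1 stood first at 448 ± 72.8 CPM per kb, followed by Tdgf1 at 250.3 ± 23.6, Lefty2 at 129 ± 29.9, Nodal at 42.5 ± 0.249, Smad7 at 15.6 ± 0.731 and Acvr2b at 9.71 ± 0.196, then Mixl1 and Gsc, whose ranges overlapped. In PGCLCs Lefty2 led on day 2 (96.5 ± 7.55 CPM per kb), day 4 (109 ± 8.13) and day 6 (80.4 ± 11.3), and on days 4 and 6 the samples of Tdgf1 overlapped those of Lefty2. Tdgf1 and Lefty1 followed Lefty2 on all 3 PGCLC days, with Tdgf1 above Lefty1 in the mean on days 2 and 4 and below it on day 6, and their samples overlapped. Nodal and Smad7 overlapped on day 2, at 22.0 ± 2.51 and 21.5 ± 1.64 CPM per kb, and not on days 4 and 6. Cer1, a secreted antagonist of Nodal, was at or near 0 in every sample.

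**Figure D1:**
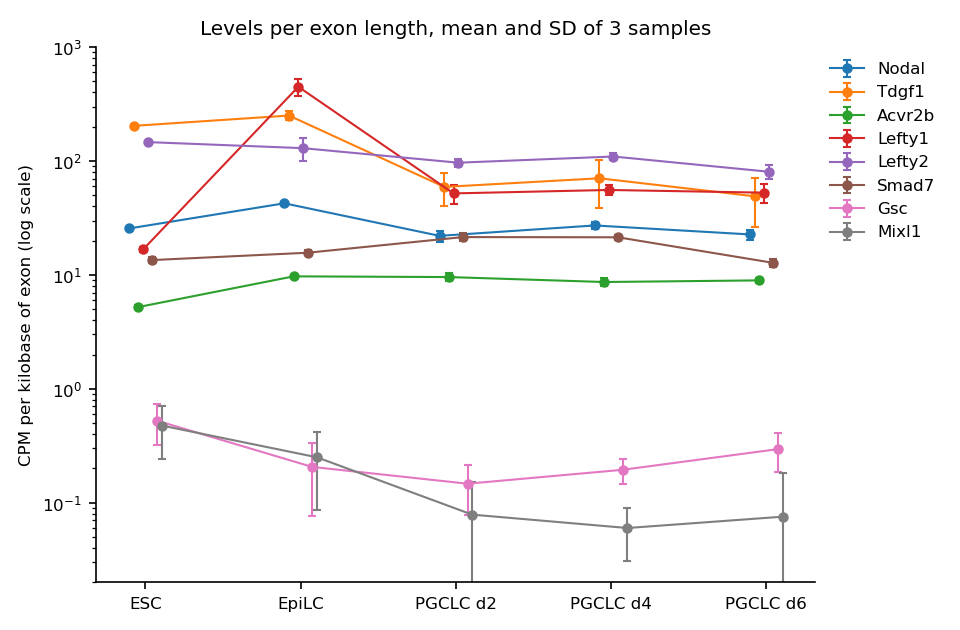
Level of each of 8 genes per kilobase of exon (vertical axis, CPM per kb, log scale) in the 5 groups (horizontal axis); points are means and bars SD of 3 samples, and a bar that reaches 0 or below runs off the lower edge. Lefty1 moves from 16.7 CPM per kb in ESCs to 448 in EpiLCs, while Gsc and Mixl1 lie below 1 in every group; Cer1 is not drawn.

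Pairs of groups were tested with edgeR's quasi-likelihood method over 18090 genes that passed a filter on low counts, with p-values adjusted by Benjamini-Hochberg (BH) over all of them. The fit had no term for replicate number. A gene was called when its BH-adjusted p was under 0.05 and its absolute log2 fold change above 1, and it is said to differ or to pass the test at an adjusted p under 0.05 alone. Of the 9 genes 8 were tested, and Cer1 did not pass the filter. Between ESCs and EpiLCs 1 of the 8 was called, Lefty1, where 26.2% of all genes tested were called. At an adjusted p under 0.05 alone, 4 of the 8 differed (Lefty1, Nodal, Acvr2b, Smad7), where 52.5% of all genes did. From EpiLCs to day 2, 2 were called (Lefty1, Tdgf1) against a background of 25.4%, and 5 differed against 53.2%. These shares were near or below their backgrounds, so the counts by themselves are no result about these genes. The bulk counts cannot tell fewer cells of a type from less RNA per cell, and the labels do not say whether replicates were separate cultures, so p-values measure the spread between these samples, which may be technical.

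Among the PGCLC days the calls were fewer, for these genes and over all genes. These counts by themselves are again no result about these genes. Between days 2 and 4 edgeR called 0 of the 8 genes, where 2.94% of all genes were called; DESeq2 also called 0, and 1 gene had an unadjusted p under 0.05. Between days 4 and 6 edgeR and DESeq2 each called 0, against 3.08% of all genes in edgeR, and 3 had an unadjusted p under 0.05. From day 2 to day 6 both tools called 0, against 13.6% of all genes in edgeR, and 1 had an unadjusted p under 0.05. At an adjusted p under 0.05 alone, edgeR found 1 gene between days 2 and 4 (11.9% of all genes), 2 between days 4 and 6 (12.8%) and 1 between days 2 and 6 (37.7%). Between ESCs and day 6 PGCLCs 3 were called (Lefty1, Tdgf1, Mixl1), against 26.2% of all genes, and 5 differed, against 53.7%. The median log2 fold change of the 8 was 0.26 from ESCs to EpiLCs, -0.72 from EpiLCs to day 2, 0.14 from day 2 to day 4 and -0.17 from day 4 to day 6; over all genes it was -0.01, 0.00, 0.02 and -0.01.

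**Figure D2:**
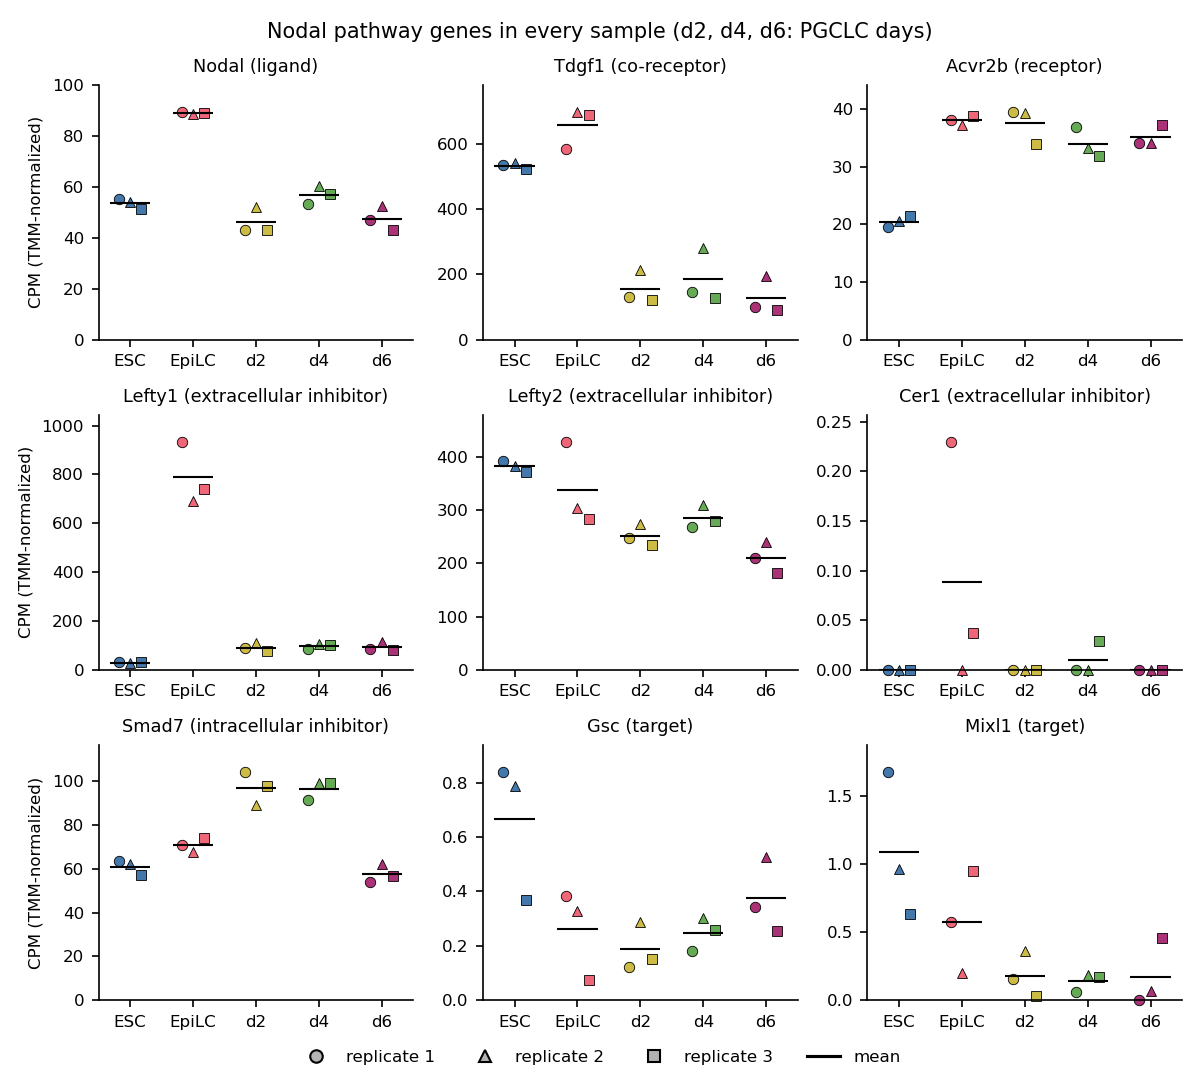
Normalized level (vertical axes, CPM, each from 0) of the 9 genes in each of the 15 samples, grouped by cell state (horizontal axes); symbols mark the replicate number and lines the mean of 3. Nodal and Lefty1 are higher in all 3 EpiLC samples than in any other sample. In PGCLCs the sample numbered 2 is the highest on each day for Nodal, Tdgf1, Lefty1, Lefty2 and Gsc.

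Nodal (ENSMUSG00000037171, chr10:61417972-61425338, plus strand, mm10), the ligand, was at 55.2, 54.2 and 51.1 CPM in the 3 ESC samples and at 89.5, 88.5 and 89.1 CPM in the EpiLC samples. Every EpiLC sample lay above every ESC sample, and the 3 EpiLC samples lay close together. The difference was 1.66-fold (log2 fold change 0.73 ± 0.09, SE; edgeR, BH-adjusted p = 2.25e-06). On day 2 Nodal was at 43.1, 52.2 and 43.1 CPM, on day 4 at 53.1, 60.5 and 57.0 CPM, and on day 6 at 46.9, 52.5 and 43.0 CPM. All 9 PGCLC samples lay below the EpiLC samples, and days 2 and 6 overlapped each other. From EpiLCs to day 2 Nodal fell by 0.95 ± 0.09 on the log2 scale (edgeR, BH-adjusted p = 9.3e-08), close to the cutoff of 1. Without day 2 replicate 2 it passed that cutoff at -1.04, and so it did with all 3 PGCLC samples numbered 2 left out. In each of these settings 3 of the 8 genes were called, not 2. Over all genes 4546 and 4494 were called in them, against 4596 (25.4%) in the main fit.

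Nodal also differed between days 2 and 4, by 0.30 ± 0.09 on the log2 scale (edgeR, BH-adjusted p = 0.0404), and its day 4 samples lay above its day 2 samples. It lost the test in 6 of 12 alternatives, in which the adjusted p ran up to 0.16 from a lowest value of 0.0151 over all 12. These were without day 2 replicate 1 (0.26) or 3 (0.26) and without day 4 replicate 2 (0.26) or 3 (0.30). The others were without the filter on low counts (0.31) and in the fit of those groups alone (0.28). From day 4 to day 6 the difference was -0.26 ± 0.09 (edgeR, BH-adjusted p = 0.0702, with 0.0321 to 0.226 over 12 alternatives). It passed the test in 2 of the 12. These were without day 6 replicate 2, at -0.35, and with a block for replicate number, at -0.26. Day 6 PGCLCs and ESCs overlapped, with a log2 difference of -0.17 and a 95% interval from -0.37 to 0.02. Without day 6 replicate 2 it was -0.25, and without all 3 PGCLC samples numbered 2 it was -0.24, and both passed the test. Leaving out each replicate in turn gave -0.25 to -0.094.

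Tdgf1 (ENSMUSG00000032494, chr9:110939603-110946158, minus strand), which encodes the EGF-CFC co-receptor Cripto, was at 536, 541 and 521 CPM in ESCs and at 585, 697 and 686 CPM in EpiLCs. The EpiLC samples lay above the ESC samples, yet the difference of 0.30 on the log2 scale did not pass the test (95% interval -0.27 to 0.88; edgeR, BH-adjusted p = 0.378; 0.000811 to 0.516 over 11 alternatives). It passed without the filter on low counts (0.29) and in the fit of those groups alone (0.31). In PGCLCs Tdgf1 was at 130, 213 and 123 CPM on day 2, at 146, 279.5 and 129 CPM on day 4, and at 98.9, 196 and 90.1 CPM on day 6. Every PGCLC sample lay below every ESC and EpiLC sample. From EpiLCs to day 2 Tdgf1 was 4.23-fold lower (log2 fold change -2.08 ± 0.29, SE; edgeR, BH-adjusted p = 5.89e-06), and between ESCs and day 6 it was 4.15-fold lower (-2.05 ± 0.29; edgeR, BH-adjusted p = 7.1e-06).

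Among PGCLCs the sample numbered 2 had the highest Tdgf1 level on each of the 3 days, which widened the spread within each day. The sample numbered 2 was also the highest on each day for Nodal, Lefty1, Lefty2 and, at few counts, Gsc. This did not hold for Smad7, Acvr2b, Mixl1 or Cer1. The fold changes between days were 0.25 (95% interval -0.33 to 0.83) from day 2 to day 4, -0.52 (-1.10 to 0.06) from day 4 to day 6 and -0.27 (-0.85 to 0.31) from day 2 to day 6, on the log2 scale, and each day 4 sample lay above the day 2 sample of the same number. Without day 6 replicate 2, Tdgf1 passed the test at -0.97 from day 4 to day 6 and at -0.72 from day 2 to day 6. When each replicate was left out in turn, Tdgf1 ran from -0.97 to -0.098 and from -0.72 to 0.019 in these comparisons. With all 3 PGCLC samples numbered 2 left out, an alternative chosen after seeing the data, it also passed, at -0.55 and -0.42, and the fall from EpiLCs to day 2 was called as well. Without the filter on low counts the differences from day 4 to day 6 (-0.53) and from day 2 to day 6 (-0.27) passed the test too.

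Reads of Tdgf1 can be shared with a pseudogene. Of its 2665 stretches of 50 bases, 236 (8.86%) also lay in transcripts of Tdgf1-ps1, and how reads with several matches were counted is not given in the sources used here. Counts of Tdgf1-ps1 were 320, 296 and 409 in ESCs, 359, 569 and 475 in EpiLCs, 104, 124 and 131 on day 2, 135, 224 and 107 on day 4, and 157, 229 and 76 on day 6. They amounted to 2.09% to 4.17% of the Tdgf1 counts of the same sample, and their share of the Tdgf1 level was not tested.

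RefSeq's promoter table for GRCm38.p6, which spans 250 bases before to 50 after each start site, matched 5 of the 9 genes (Nodal, Tdgf1, Cer1, Gsc, Acvr2b); Lefty1, Lefty2, Mixl1 and Smad7 had no entry used here. Both strands were searched for CAGAC, a core of SMAD-bound sequences whose reverse is GTCTG, and for TGTGGATT, a FOXH1-type sequence whose reverse is AATCCACA. The Tdgf1 promoter is shown because Tdgf1 was called in 2 comparisons and its window holds a match. It lies at chr9:110946109-110946408 on the minus strand, and capitals mark CAGAC, which begins 113 bases upstream of the start site.
Tdgf1 promoter: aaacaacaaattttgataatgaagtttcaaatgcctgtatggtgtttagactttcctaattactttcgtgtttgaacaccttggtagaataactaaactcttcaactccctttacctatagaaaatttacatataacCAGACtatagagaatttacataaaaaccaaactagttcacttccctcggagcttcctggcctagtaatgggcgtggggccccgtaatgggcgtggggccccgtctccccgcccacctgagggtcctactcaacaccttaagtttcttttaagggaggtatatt
The windows of Cer1 and Acvr2b each held 1 match to the SMAD sequence and those of Nodal and Gsc held 0. Of all 32851 promoters of this length 49.6% held that sequence on either strand. None of the 5 windows held the FOXH1-type sequence, which 0.855% of all promoters held.

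Acvr2b (ENSMUSG00000061393, chr9:119402118-119434995, plus strand), a type II receptor for Nodal and activin, was at 19.5, 20.6 and 21.4 CPM in ESCs and at 38.2, 37.3 and 38.9 CPM in EpiLCs. No EpiLC sample overlapped the ESC samples, and the level was 1.86-fold higher (log2 fold change 0.89 ± 0.09, SE; edgeR, BH-adjusted p = 2.31e-07). It then ranged from 33.9 to 39.6 CPM on day 2, from 31.9 to 37.0 CPM on day 4 and from 34.1 to 37.2 CPM on day 6. The 95% interval of its log2 difference between EpiLCs and day 2 was -0.22 to 0.17. Between ESCs and day 6 it was 1.71-fold higher (0.78 ± 0.09; edgeR, BH-adjusted p = 1.41e-06), with every day 6 sample above every ESC sample. An antisense gene, Gm47320, overlaps Acvr2b on the genome without sharing exonic bases and had 0 counts in all 15 samples.

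Lefty1 (ENSMUSG00000038793, chr1:180935022-180938400, plus strand) and Lefty2 (ENSMUSG00000066652, chr1:180893108-180899103, plus strand) encode secreted antagonists that bind Nodal and its co-receptor and are themselves induced by SMAD2 and SMAD3 signaling. Their coding sequences, each of 1104 bases, were identical at 1014 positions (91.8%), so short reads from one can match the other. The sequences below show where the genes are most easily told apart, with GENCODE M21 transcripts as source. The 60-base window with the most differences lies in exon 1, at chr1:180935143-180935202 in Lefty1 and chr1:180893217-180893276 in Lefty2, both on the plus strand, and capitals mark its 18 differing positions.
Lefty1 window: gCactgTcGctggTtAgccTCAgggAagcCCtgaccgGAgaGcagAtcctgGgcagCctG
Lefty2 window: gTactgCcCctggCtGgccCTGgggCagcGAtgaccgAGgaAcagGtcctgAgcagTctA
Of the 1707 stretches of 50 bases in Lefty1 transcripts, 306 (17.9%) also occur in Lefty2.

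Lefty1 was at 30.1, 27.9 and 30.1 CPM in ESCs and at 932, 691 and 739 CPM in EpiLCs. All 3 EpiLC samples lay far above the ESC samples. The level was 26.8-fold higher in EpiLCs (log2 fold change 4.74 ± 0.17, SE; edgeR, BH-adjusted p = 5.45e-14). In PGCLCs Lefty1 was at 88.4, 110 and 75.4 CPM on day 2, at 86.3, 105 and 102 CPM on day 4, and at 83.6, 113 and 80.8 CPM on day 6. These 9 samples lay between the ESC and the EpiLC samples and the 3 days overlapped one another. The fall from EpiLCs to day 2 was 8.63-fold (-3.11 ± 0.15; edgeR, BH-adjusted p = 9.51e-12), and day 6 PGCLCs lay 3.15-fold above ESCs (1.66 ± 0.15; edgeR, BH-adjusted p = 2.94e-08). Between days 2 and 6 the 95% interval of the log2 difference was -0.28 to 0.32. Activin A was part of the EpiLC medium alone among these groups, so an effect of the added ligand and one of the cell state cannot be told apart here.

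Lefty2 was at 393, 383 and 371 CPM in ESCs and at 428, 303 and 284 CPM in EpiLCs, where replicate 1 lay above and replicates 2 and 3 below the ESC samples. The log2 difference of -0.18 did not pass the test (95% interval -0.44 to 0.09, edgeR, BH-adjusted p = 0.256), and without EpiLC replicate 1 it was -0.37 and passed. Leaving out each replicate in turn gave Lefty2 differences from -0.37 to -0.054 between these groups. On day 2 it was at 247, 274 and 235 CPM, on day 4 at 268, 309 and 279 CPM, and on day 6 at 209, 239.9 and 181 CPM. The day 2 samples lay below the EpiLC samples, with a log2 fold change of -0.42 ± 0.13 (edgeR, BH-adjusted p = 0.00851; 8.1e-05 to 0.0999 over 12 alternatives) that did not pass the test at -0.22 without EpiLC replicate 1. From day 4 to day 6 the groups did not overlap and Lefty2 fell by 0.44 ± 0.13 on the log2 scale (edgeR, BH-adjusted p = 0.0271; 7.1e-05 to 0.109 over 12 alternatives). It lost the test without day 4 replicate 2 (-0.39), day 6 replicate 1 (-0.44) or day 6 replicate 3 (-0.35), and in the fit of those groups alone (-0.43). From day 2 to day 6 Lefty2 differed by -0.26, with a 95% interval of -0.53 to 0.00, and passed the test without day 6 replicate 2, at -0.38, and without the filter on low counts, at -0.27. Day 6 PGCLCs lay below ESCs in every sample, by 1.82-fold (-0.86 ± 0.13; edgeR, BH-adjusted p = 1.41e-05).

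The order of the paralogs differed between groups. Per exon length, Lefty1 was at 0.114 ± 0.00615 of Lefty2 in ESCs (SD, n = 3) and at 3.50 ± 0.330 in EpiLCs. In PGCLCs the ratio was 0.535 ± 0.0600 on day 2, 0.508 ± 0.0332 on day 4 and 0.653 ± 0.0553 on day 6. The 3 EpiLC samples alone had more Lefty1 than Lefty2, the 3 ESC samples had the lowest ratios of the 15, and the PGCLC samples lay between. In ESCs, Lefty1 counts were 7.29% to 8.11% of Lefty2 counts, which bounds what reads of Lefty2 can have added to Lefty1 there. The ratio was described and not tested.

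**Figure D3:**
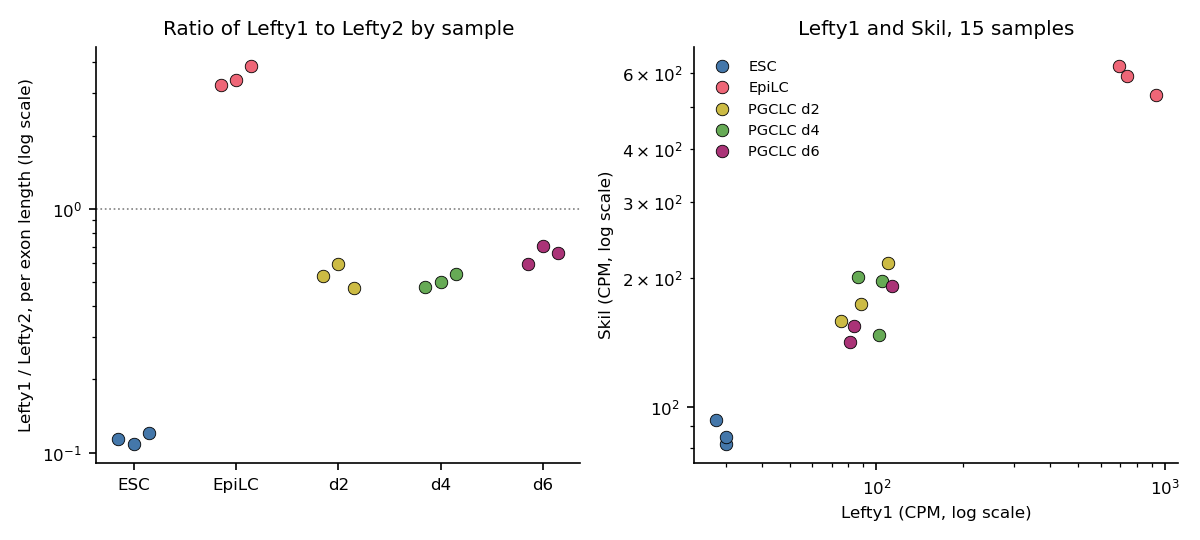
Left, ratio of Lefty1 to Lefty2 per exon length in each sample (log scale; dotted line, equal levels), with EpiLC samples from 3.24 to 3.87 and ESC samples from 0.108 to 0.12. Right, CPM of Skil against CPM of Lefty1 in the 15 samples, both on log scales and coloured by group, which form an ESC cluster, an EpiLC cluster and a cluster of all PGCLC samples.

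Cer1 had 0 counts in all ESC, day 2 and day 6 samples, 6, 0 and 1 counts in EpiLCs, and 0, 0 and 1 counts on day 4. All but 1 sample were at or under the floor of 3 counts used here, which corresponds to 0.0661 to 0.132 CPM, so expression of Cer1 was not detectable at this depth in 14 samples; floors cover counting error only. No fold change is given for it. Some 1.78% of its 50-base stretches lay in other genes.

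Smad7 (ENSMUSG00000025880), which encodes an inhibitory SMAD that acts on the activated type I receptor, followed another course. It was at 63.7, 62.0 and 57.4 CPM in ESCs and at 70.7, 67.5 and 74.1 CPM in EpiLCs. The EpiLC samples lay above the ESC samples, and the log2 difference of 0.21 ± 0.08 passed the test (edgeR, BH-adjusted p = 0.0364; 0.0105 to 0.142 over 11 alternatives). It lost the test without ESC replicate 1 (0.24), 2 (0.22) or 3 (0.18), without EpiLC replicate 1 (0.23) or 3 (0.19), and without the filter on low counts (0.20). On day 2 Smad7 was at 104, 89.4 and 97.6 CPM, on day 4 at 91.5, 99.2 and 99.3 CPM, and on day 6 at 53.9, 62.3 and 56.7 CPM. Days 2 and 4 overlapped each other and lay above all other samples, and the day 6 samples overlapped the ESC samples.

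From EpiLCs to day 2 Smad7 rose 1.37-fold (log2 fold change 0.46 ± 0.08, SE; edgeR, BH-adjusted p = 0.000119). From day 4 to day 6 it fell 1.68-fold (-0.75 ± 0.08; edgeR, BH-adjusted p = 2.39e-05), and from day 2 to day 6 likewise 1.68-fold (-0.75 ± 0.08; edgeR, BH-adjusted p = 1.74e-06). Both falls passed the test at an adjusted p under 0.05 in all 12 alternatives run for each. Smad7 was the 1 gene of the 8 that passed this test between days 2 and 6. Between ESCs and day 6 its log2 difference had a 95% interval from -0.25 to 0.09.

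**Figure D4:**
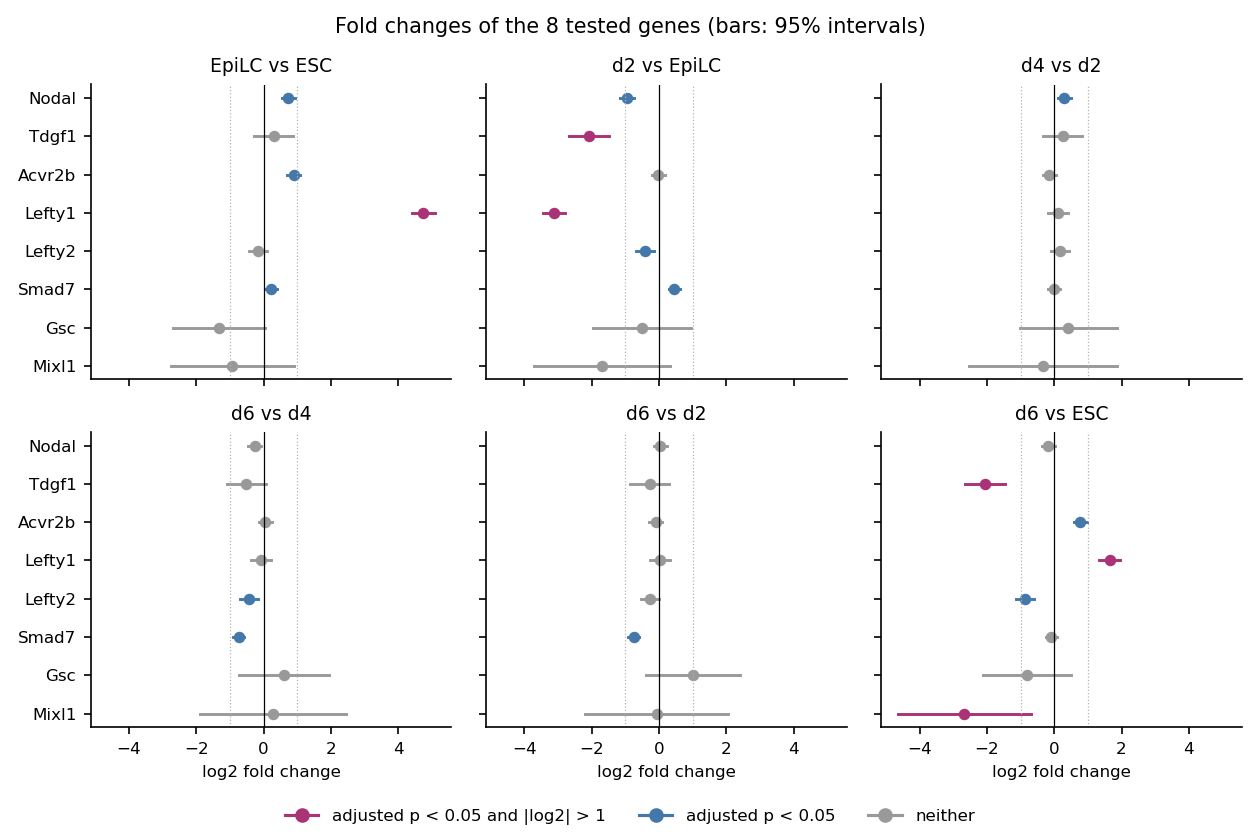
Log2 fold change (horizontal axis) of the 8 tested genes in the 6 comparisons; bars are 95% intervals from edgeR, colours mark genes called, genes with adjusted p under 0.05 alone and others, and dotted lines mark -1 and 1. Lefty1 has the largest changes at 4.74 (EpiLCs against ESCs) and -3.11 (day 2 against EpiLCs), and the intervals of Gsc and Mixl1 are the widest in each panel.

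Gsc (ENSMUSG00000021095, chr12:104471209-104473330, minus strand) and Mixl1 (ENSMUSG00000026497, chr1:180693043-180697034, minus strand) encode homeobox factors of the primitive streak and early mesendoderm, and both were near the lower limit. Gsc had 23, 18 and 11 counts in ESCs, 10, 10 and 2 in EpiLCs, 4, 8 and 5 on day 2, 6, 10 and 9 on day 4, and 13, 24 and 9 on day 6. Its groups overlapped in all 6 comparisons, and it passed the test in 0 of them with edgeR, with 0 at an unadjusted p under 0.05; DESeq2 gave it an adjusted p in 4 comparisons and called it in 0. In EpiLCs against ESCs its log2 difference of -1.33 had a 95% interval from -2.69 to 0.04.

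Mixl1 had 46, 22 and 19 counts in ESCs, 15, 6 and 26 in EpiLCs, 5, 10 and 1 on day 2, 2, 6 and 6 on day 4, and 0, 3 and 16 on day 6. The ESC samples lay above the day 6 samples in CPM, and EpiLCs overlapped ESCs. Between ESCs and day 6 it was called at -2.67 ± 0.94 on the log2 scale (edgeR, BH-adjusted p = 0.0227; 0.00228 to 0.102 over 12 alternatives). The call was lost without ESC replicate 1 (-2.21), day 6 replicate 1 (-2.09), which is the library with few low counts, or day 6 replicate 2 (-2.27), and with the PGCLC samples numbered 2 left out (-2.25); without day 6 replicate 3 the value was -4.80. In each of these 4 settings that lost it, 2 of the 8 genes were called. Over all genes 4459, 4737, 4855 and 4780 were called in them, in the order given, against 4732 (26.2%) in the main fit.

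Markers of other cell types were set beside these low targets. Of 9 endoderm markers (Sox17, Gata4, Gata6, Foxa2, Sox7, Afp, Ttr, Cubn, Hnf4a), 4 to 7 had more than 3 counts in a sample. Their summed level was 9.89, 10.8 and 11.7 CPM in ESCs, 4.29, 5.23 and 5.50 CPM in EpiLCs, 1.87, 1.83 and 2.10 CPM on day 2, 4.70, 5.21 and 4.90 CPM on day 4, and 20.2, 10.2 and 13.4 CPM on day 6. Gata6 was the most abundant of them in all day 4 and day 6 samples, at 14.1, 5.66 and 7.99 CPM on day 6, while Ttr was at 0 in all 15 samples and Afp at 0 in 7.

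Of 6 mesoderm markers (T, Mesp1, Tbx6, Kdr, Hand1, Msgn1), 3 or 4 had more than 3 counts in a sample. Their summed level was 17.5, 17.6 and 17.0 CPM in ESCs, 2.49, 3.39 and 3.52 CPM in EpiLCs, 3.37, 3.12 and 2.25 CPM on day 2, 3.97, 5.96 and 4.58 CPM on day 4, and 14.0, 17.7 and 11.6 CPM on day 6. The ESC sum was mostly T, at 14.5 to 15.2 CPM, and the day 6 sum mostly Hand1, at 13.4, 15.8 and 9.98 CPM; Mesp1, Msgn1 or both were at 0 in each of the 15 samples. Neuroectoderm markers (Sox1, Pax6, Neurog2; 1 or 2 of 3 above 3 counts) summed to 2.63 to 10.4 CPM with Pax6 or Sox1 the most abundant, and Neurog2 was at 0 in all samples except day 6 replicate 2. Fibroblast feeder markers (Col1a1, Col1a2, Thy1, Postn, Col3a1; 2 to 5 of 5 above 3 counts) summed to 7.58 to 8.38 CPM in ESCs, 18.2 to 19.8 CPM in EpiLCs and 0.889 to 2.19 CPM in PGCLCs, with Thy1 the most abundant in ESCs and EpiLCs, and Postn or Col3a1 was at 0 in every sample except EpiLC replicates 1 and 3. Trophoblast markers (Elf5, Krt7, Ascl2, Tfap2a; 2 to 4 of 4 above 3 counts) summed to 16.0 to 20.0 CPM in ESCs, where Tfap2a made up 14.9 to 18.8 CPM, to 9.80 to 11.2 CPM in EpiLCs and to 4.29 to 10.5 CPM in PGCLCs, with Krt7 the most abundant in each PGCLC sample and Elf5 at 0 in 4 of the ESC and EpiLC samples. The part of such cells in the levels of Gsc, Mixl1 and the other genes was not tested.

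The other genes of the pathway were taken from 5 lists of 56 distinct genes, in which the 9 genes are included; genes named here by symbol alone, without a value, were named after their values were seen. Among 12 ligands and convertases, 10 were tested. From ESCs to EpiLCs 1 rose (Tgfb3) and 4 fell (Furin, Inha, Pcsk6, Tgfb1), so 5 of 10 were called where 26.2% of all genes were, with a median log2 fold change of -0.98 against -0.01 over all genes. Pcsk6, a convertase that can process Nodal, fell from 69.0 ± 4.5 to 7.98 ± 0.38 CPM (SD, n = 3) and was back at 45.4 ± 2.2 CPM on day 2 (log2 fold changes -3.11 and 2.51). Furin, another convertase, fell from 28.3 ± 2.6 to 11.9 ± 1.4 CPM. From EpiLCs to day 2, 3 rose (Inha, Inhbb, Pcsk6) and 1 fell (Gdf11), against 25.4% of all genes called, and from day 2 to day 6, 3 rose (Gdf11, Inha, Inhbb), against 13.6%. The fall of Gdf11 (log2 fold change -1.14) was not called without EpiLC replicate 3 (-0.98). No list was tested as a set, so these counts are descriptions. Inhbb, an activin and inhibin subunit, was at 1.37 ± 0.50 CPM in EpiLCs, 4.72 ± 0.43 CPM on day 2 and 11.5 ± 2.1 CPM on day 6.

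Of 9 receptors and co-receptors 8 were tested. From ESCs to EpiLCs 1 was called, Cfc1, which rose, and from EpiLCs to day 2, 1 rose (Tgfbr2) and 2 fell (Tdgf1, Tgfbr3), with list medians of 0.06 and 0.20 on the log2 scale. Over all genes 26.2% and 25.4% were called, and the counts by themselves are no result about this list. Tgfbr3, the TGF-beta co-receptor betaglycan, went from 5.36 ± 0.46 to 1.08 ± 0.46 CPM over the latter interval and from 0.711 ± 0.069 to 2.35 ± 0.23 CPM between days 4 and 6 (log2 fold changes -2.31 and 1.72). Of 7 extracellular inhibitors 6 were tested, of which 2 rose (Lefty1, Fstl3) and 1 fell (Fst) from ESCs to EpiLCs and 2 fell (Lefty1, Fst) from EpiLCs to day 2, beside the same 26.2% and 25.4% of all genes. From day 2 to day 6, 1 rose (Fstl3) and 1 fell (Fst), and day 6 PGCLCs had 2 above ESCs (Lefty1, Fstl3) and 1 below (Fst), beside 13.6% and 26.2%. Fstl3, a relative of follistatin, was at 1.21 ± 0.437 CPM in ESCs, 4.19 ± 0.722 CPM in EpiLCs, 2.55 ± 1.78 CPM on day 2 and 8.06 ± 3.70 CPM on day 6 (log2 fold changes of the 3 calls 1.76, 1.68 and 2.71); without day 2 replicate 3 the rise from day 2 to day 6 lost the test (1.28). Follistatin (Fst), which binds activin, was called as lower in every comparison except days 2 to 4, and was at 11.9 ± 0.74 CPM in ESCs, 3.86 ± 1.3 CPM in EpiLCs and 1.52 ± 0.74 CPM on day 2, with 0, 10 and 8 counts on day 6. From day 2 to day 4 Fst was nonetheless lower in each same-numbered sample, at 1.59 and 0.45, 0.75 and 0.33, and 2.22 and 1.17 CPM. Its fall from EpiLCs to day 2 (log2 fold change -1.33) was lost without EpiLC replicate 1 (-1.12) or 2 (-1.23) or day 2 replicate 2 (-1.01), and with the PGCLC samples numbered 2 left out (-1.01), and its fall from day 4 to day 6 (-2.10) was lost in the fit of those groups alone (-2.10) and without day 4 replicate 3 (-1.36) or day 6 replicate 1 (-1.54), the library that stood apart, or 3 (-2.44). Lefty1 and Fst moved in opposite directions from ESCs to EpiLCs and in the same direction from EpiLCs to day 2.

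All 18 SMADs, SMAD partners and intracellular inhibitors were tested: 2 rose (Skil, Trim33) and 1 fell (Eomes) from ESCs to EpiLCs, and 2 rose (Eomes, Tgif2) and 2 fell (Pmepa1, Skil) from EpiLCs to day 2. The list medians were 0.18 and 0.12 on the log2 scale. From day 2 to day 6, 1 rose (Pmepa1), and day 6 PGCLCs had 2 above ESCs (Ski, Tgif2). Of all genes 26.2%, 25.4%, 13.6% and 26.2% were called in these 4 comparisons, and counts this small are no result about the list. Trim33 lay at the cutoff, with a log2 fold change of 1.01, and was not called without ESC replicate 3 (0.98), without EpiLC replicate 2 (0.96) or without the filter on low counts (1.00). Skil, a SMAD corepressor and known target of the pathway, was at 86.4 ± 5.9 CPM in ESCs, 583 ± 46 CPM in EpiLCs and 183 ± 30 CPM on day 2 (log2 fold changes 2.75 ± 0.14 and -1.67 ± 0.13; edgeR, BH-adjusted p = 1e-11 and 6.44e-09). Eomes went the other way, from 21.7 ± 2.0 to 6.86 ± 0.64 and back to 19.1 ± 2.5 CPM, with log2 fold changes of -1.66 and 1.47. Pmepa1, which encodes a feedback inhibitor, fell from 12.5 ± 1.0 to 4.97 ± 0.63 CPM between EpiLCs and day 2 and was at 12.3 ± 1.3 CPM on day 6.

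Among 11 mesendoderm targets 10 were tested, Gsc and Mixl1 among them. From ESCs to EpiLCs 3 rose (Fgf8, Foxa2, Lhx1) and 5 fell (Eomes, Evx1, Hhex, Sox17, T), and from EpiLCs to day 2, 3 rose (Eomes, Evx1, Lhx1) and 3 fell (Fgf8, Foxa2, Sox17), so 8 and 6 of 10 were called where 26.2% and 25.4% of all genes were. Foxa2 and Fgf8 had more than 11 counts in EpiLC samples alone, and T in ESC samples alone. Each passed the filter on low counts through that group, so its calls against that group were nearly fixed in advance. The list was also chosen with earlier results of these data known, so its counts are no result about it. T (Brachyury) had 346 to 434 counts in ESCs, 8, 1 and 11 in EpiLCs and 0, 2 and 1 on day 6. Lhx1 had 0, 1 and 1 counts in ESCs and rose to 11.6 ± 1.6 CPM on day 4, before it fell to 5.28 ± 0.86 CPM on day 6. From day 2 to day 4, 2 of the 10 rose (Lhx1, Sox17), from day 4 to day 6, 2 fell (Evx1, Lhx1), from day 2 to day 6, 2 rose (Hhex, Sox17) and 0 fell, and day 6 PGCLCs had 2 above ESCs (Hhex, Lhx1) and 3 below (Evx1, Mixl1, T). In these 4 comparisons 2.94%, 3.08%, 13.6% and 26.2% of all genes were called. The fall of Evx1 from day 4 to day 6 (log2 fold change -1.95; edgeR, BH-adjusted p = 0.0312) lost the test in 4 of 12 alternatives: in the fit of those groups alone (-1.96), and without day 4 replicate 2 (-1.49) or day 6 replicate 1 (-1.46) or 3 (-1.85); without day 6 replicate 2 it was -2.97. Sox17, with few counts, lost its call in 4 of 11 alternatives from ESCs to EpiLCs (log2 fold change -1.16; -1.17 to -0.99 in those 4), in 7 of 12 from EpiLCs to day 2 (-1.30; -1.38 to -0.99 in those 7) and in 4 of 12 from day 2 to day 4 (1.85; 1.62 to 1.93 in those 4). Hhex lost its call from ESCs to EpiLCs (-1.12) without ESC replicate 1 (-0.998) or EpiLC replicate 2 (-0.985).

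**Figure D5:**
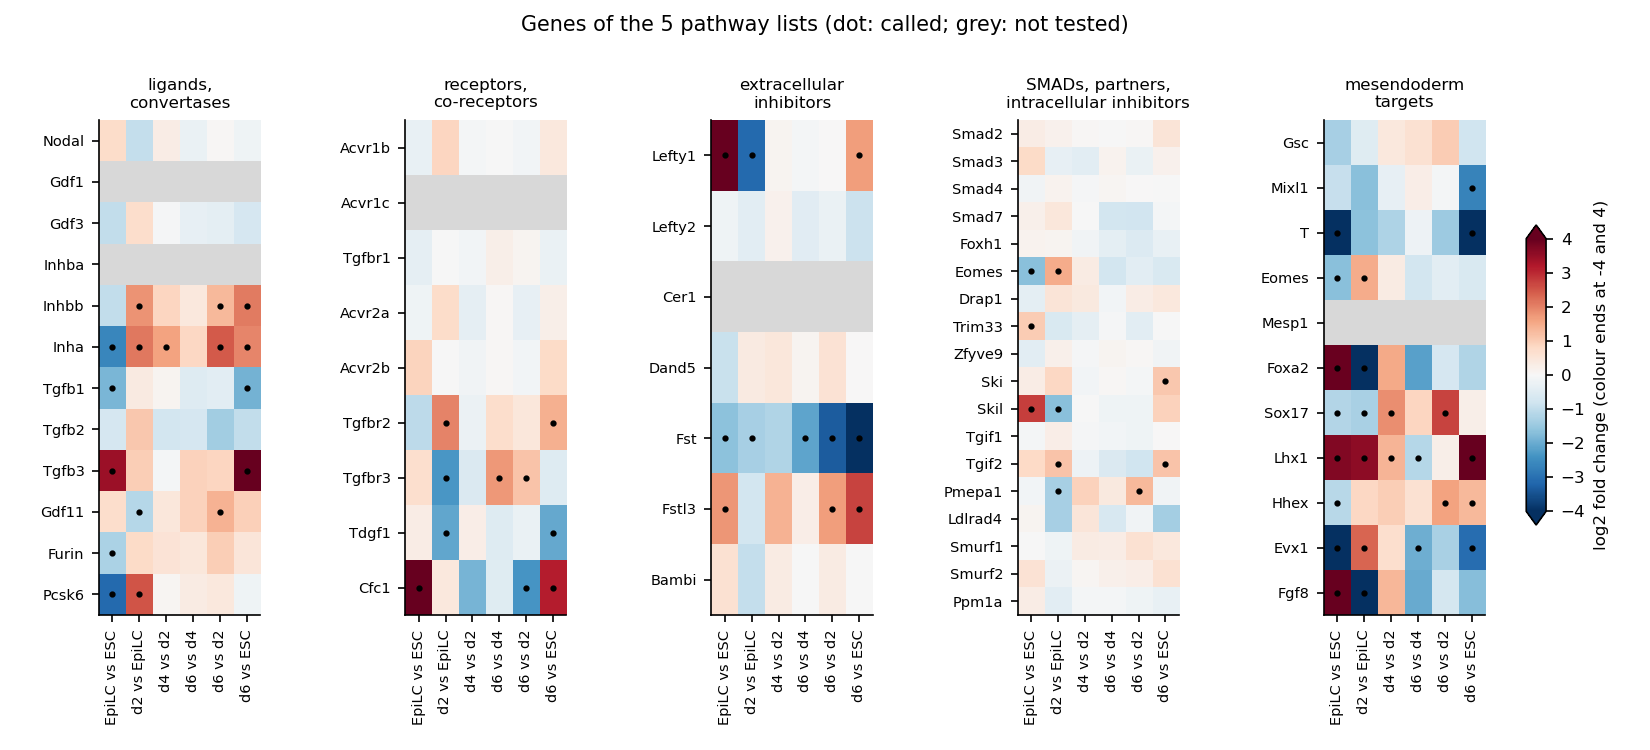
Log2 fold change (colour) of each gene of the 5 lists (vertical axes) in the 6 comparisons (horizontal axes); a dot marks a called gene and grey a gene not tested, and fold changes of genes with few counts depend on the fit's prior count. Fst and Lhx1 each carry dots in 5 of the 6 comparisons.

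Genes whose pattern over the 15 samples was most like a member were sought among 11391 tested genes with a mean of 100 or more counts, by Pearson's correlation of log2 CPM. The samples fall into clusters by group, so each coefficient is a description. For Lefty1 the 5 genes were Skil (r = 0.983), Pi4k2b (0.983), Gng2 (0.980), Mafk (0.980) and Igsf9 (0.979). Each had its highest mean in EpiLCs, as Lefty1 did, for example Gng2 at 28.2 ± 3.5 CPM against 1.95 ± 0.37 CPM in ESCs. Within EpiLCs the sample with the most Lefty1 had the least Skil.

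For Nodal the 5 genes were Dok2 (r = 0.974), Isyna1 (0.963), Dnmt3l (0.946), Mto1 (0.945) and Hes6 (0.938). Dnmt3l, a cofactor of de novo DNA methylation, was at 159 ± 7.9 CPM in ESCs, 414 ± 16 CPM in EpiLCs and 89.2 ± 12 CPM on day 2. For Tdgf1 they were its pseudogene Tdgf1-ps1 (r = 0.976), with which it shares sequence, and Clmp (0.976), Pdia6 (0.974), Acly (0.972) and Lbr (0.969). Acly, which makes cytosolic acetyl-CoA, was at 1373 ± 71 CPM in ESCs, 1568 ± 100.1 CPM in EpiLCs and 577 ± 18 CPM on day 2. Among the members themselves, Nodal correlated with Lefty1 at r = 0.807 and with Tdgf1 at 0.761, Lefty2 with Tdgf1 at 0.827, and Lefty1 with Lefty2 at 0.0387.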

How the data were processed

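RNA-seq counts per gene were deposited by the authors as raw counts, not normalized, for 15 samples. The labels name Trim Galore, FastQC and STAR and the build mm10; versions, the annotation release, the strand setting and the treatment of multi-mapping reads are not given in the sources used here. The library kit keeps strand. All 55536 identifiers matched GENCODE M21, whose symbols and exon lengths were used. Counts were TMM-normalized and tested with edgeR 4.0.16 in R 4.3.3 (glmQLFit and glmQLFTest; filterByExpr with a minimum count of 10; all 15 samples and 5 groups in 1 fit), after the script was tested on simulated data. BH adjustment was over 18090 genes. Depth was 22555021 to 42725681 counts per sample. All 15 replicate pairs differed beyond counting noise (chi-square per gene 8.82 to 44.6, genes with 20 or more counts), so no library was counted as a repeat.

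The members and lists were chosen with earlier results of these data known; 1 gene of the mesendoderm list as planned, and 1 sequence, are not reported here. Named genes were the 9 members, up to 3 other called genes per list and comparison with the largest absolute log2 fold change and a mean of 50 or more counts in either group, the 5 genes most like Nodal, Lefty1 and Tdgf1, and all cell type markers. Alternatives were DESeq2 1.42.0, edgeR run with the size factors of DESeq2, all genes kept whatever their counts, no fold-change cutoff, a fit of the 2 groups alone, a replicate block, leaving out each replicate, and a prior count of 0.5 in place of 2 for likeness; leaving out the PGCLC samples numbered 2, and all settings for called list genes, were added after seeing the data.

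Replicate numbers come from the labels. Deviations from group means of same-numbered samples correlated at 0.102, 0.152 and 0.159 between days 2 and 4. The main fit had a term for group alone, so none of its tests is paired. The replicate block, run as an alternative, was shared by all 5 groups and not fitted to days 2 and 4 alone. In the other 5 comparisons the lowest such correlation was between -0.0178 and 0.0146. Samples numbered 2 correlated at 0.208 between days 4 and 6 and at 0.178 between days 2 and 6. The means over same numbers were 0.117 and 0.0738 there, against -0.0587 and -0.0373 over different numbers. Tables and figures were made with Python 3.11.15.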

Additional observations from a re-analysis of the deposited data

How the results depend on the processing

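The 6 comparisons were run under 5 other settings of tool, scaling, filter, block and samples, without a fold-change cutoff, and without each replicate. Of 18 differences of the members that passed the test, 5 lost it in at least 1 alternative, each named beside its value in the report, and 0 of the 18 changed sign. Without a fold-change cutoff, 9495 genes and 4 members were called in EpiLCs against ESCs, 9626 and 5 in day 2 against EpiLCs, 2146 and 1 in day 4 against day 2, 2323 and 2 in day 6 against day 4, 6823 and 1 in day 6 against day 2, and 9721 and 5 in day 6 against ESCs, by the construction of that setting. In the fit of the 2 groups alone, 371 genes were called between days 4 and 6, against 557, with fewer samples in the fit. With the replicate block, calls of members did not change in number in any comparison, and 4726, 4560, 543, 566, 2416 and 4704 genes were called in the same order. Nodal then passed the adjusted p of 0.05 between days 4 and 6 (-0.26). There the deviations of same-numbered samples correlated at -0.00292, 0.208 and 0.147. Between days 2 and 4, where the lowest such correlation was 0.102, the block changed no call of a member. Nodal passed the test with the block at 0.31 (edgeR, adjusted p = 0.023) and Tdgf1 did not at 0.22 (edgeR, adjusted p = 0.458). The block was shared by all 5 groups and is not a paired test of days 2 and 4 alone.

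Signs turned 25 times, each for a difference that had not passed the test and was at most 0.34 in size on the log2 scale; the cause was not tested. With the PGCLC samples numbered 2 left out, Mixl1 was 0.35 in day 4 against day 2 and 1.26 in day 6 against day 2, and Lefty1 was -0.00121 in the latter. Leaving out each replicate gave log2 fold changes from -0.0553 to 0.0527 for Acvr2b in day 2 against EpiLCs. In day 4 against day 2 they ran from -0.0636 to 0.0476 for Smad7, -0.86 to 0.58 for Mixl1, -0.18 to 0.55 for Tdgf1 and -0.0184 to 0.25 for Lefty1. In day 6 against day 2 they ran from -2.21 to 0.85 for Mixl1, -0.72 to 0.019 for Tdgf1, -0.0421 to 0.13 for Nodal and -0.16 to 0.17 for Lefty1. In day 6 against day 4 they ran from -1.87 to 0.84 for Mixl1, -0.26 to 0.00702 for Lefty1 and -0.00202 to 0.11 for Acvr2b. Of 45 results of named list genes, 5 lost the test in at least 1 alternative, in 14 runs together, and 515 runs kept it. These were Fst in day 2 against EpiLCs, Evx1 in day 6 against day 4 and Fstl3 in day 6 against day 2 (settings in the report), Inha in day 4 against day 2 (without day 2 replicate 3, 1.34, and with the PGCLC samples numbered 2 left out, 1.58) and Tgfbr2 in day 6 against ESCs (without ESC replicate 1, 1.11, or 2, 1.27, or day 6 replicate 1, 0.98). With the cutoff counted too, 15 of 65 calls of list genes other than the members were lost in at least 1 alternative; those not named here or in the report were Tgfbr3 in day 6 against day 2 (0.92 without day 2 replicate 3), Cfc1 in day 6 against day 2 (-1.50 with the PGCLC samples numbered 2 left out) and Cfc1 in day 6 against ESCs (2.33 without day 6 replicate 1). The 5 genes most like Nodal, Lefty1 and Tdgf1 were the same with a prior count of 0.5. Depth limits Cer1, Gsc and Mixl1, whose counts lay between 0 and 46.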
